A study of Homo sapiens with 8 samples.

Results

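The enzymes that convert squalene to cholesterol were followed through 9 genes: SQLE, LSS, CYP51A1, TM7SF2, MSMO1, NSDHL, HSD17B7, EBP and DHCR7. They were chosen by function, as genes of the sterol branch after squalene, and all probes that the platform annotation gives to these symbols were taken, which made 15 probes of the 47323 on the beadchip and 9 of the 20046 genes it names here. Expression was measured in 4 groups of 2 arrays: SKOV3 cells treated with 10 µM lovastatin, SKOV3 cells given DMSO, OVCAR5 cells treated with 10 µM lovastatin, and OVCAR5 cells given DMSO, in each case for 48 h. SKOV3 and OVCAR5 are established human carcinoma lines used to study ovarian cancer. All 4 groups grew in medium with fetal calf serum, which carries cholesterol. Lovastatin blocks the reductase that makes mevalonate, and DMSO is its solvent. Separate cultures behind the 2 arrays are not stated in the labels, so the p-values measure only the spread between these arrays, which may be technical, and 2 arrays a group limit the precision of every value.

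Cholesterol is built from acetyl-CoA through mevalonate and farnesyl diphosphate to squalene, and the steps after squalene lead to sterols. SQLE, the squalene epoxidase, adds the first oxygen. LSS folds the epoxide into lanosterol, CYP51A1 and the reductase TM7SF2 remove one methyl group and repair the double bond left behind, MSMO1, NSDHL and HSD17B7 remove a pair of methyl groups, EBP moves a double bond, and DHCR7 makes cholesterol from its last precursor in one arm of the pathway. When membranes of the endoplasmic reticulum run low in sterol, SCAP escorts SREBP2 to the Golgi, where it is processed into an active transcription factor, which is known to act on most of these genes through short sterol regulatory elements with the help of NF-Y, which binds CCAAT boxes, and Sp1, which binds GC boxes.

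The promoters are shown because NF-Y and Sp1 are the known partners of SREBP2. Whether their sites bear on the changes below was not tested. RefSeq windows (build GRCh38.p14) matched 8 of the 9 genes, all but SQLE, with 2 windows for DHCR7. In the 250 bases before the start, on both strands, the CCAAT box (CCAAT) was found for 7 of 8 genes. By window that is 7 of 9, against 32% of all 35116 windows. The GC box (GGGCGG) was found for 7 of 8 genes and 7 of 9 windows, against 42.6% of all windows. CYP51A1 was the gene with no CCAAT match and NSDHL the one with no GC match. The letters TCACNCCAC of a classical sterol regulatory element were found for 0 of 8 genes (0.883% of all windows), and the E-box CACGTG for 0 of 8 (6.34%). No match means only that these letters are not in these windows. The 200 bases before the start are given for CYP51A1, MSMO1 and DHCR7, whose changes, like that of SQLE, differed between the lines. They are also given for LSS, the gene called in both lines, and for EBP, the gene with the greatest difference between the untreated lines. They read 5′ to 3′ on the gene's strand, and capitals mark CCAAT and GC matches on either strand, none of which overlap.
LSS, chr21:46228775-46228974, minus strand: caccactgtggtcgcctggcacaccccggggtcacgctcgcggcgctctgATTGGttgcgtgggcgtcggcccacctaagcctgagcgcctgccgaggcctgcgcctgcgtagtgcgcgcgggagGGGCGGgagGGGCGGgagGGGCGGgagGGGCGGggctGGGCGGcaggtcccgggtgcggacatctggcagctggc
CYP51A1, chr7:92134478-92134677, minus strand: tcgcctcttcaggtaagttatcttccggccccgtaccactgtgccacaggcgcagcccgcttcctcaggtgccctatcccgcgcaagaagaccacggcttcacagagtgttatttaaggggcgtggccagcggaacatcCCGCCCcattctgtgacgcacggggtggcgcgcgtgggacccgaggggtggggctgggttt
MSMO1, chr4:165327469-165327668, plus strand: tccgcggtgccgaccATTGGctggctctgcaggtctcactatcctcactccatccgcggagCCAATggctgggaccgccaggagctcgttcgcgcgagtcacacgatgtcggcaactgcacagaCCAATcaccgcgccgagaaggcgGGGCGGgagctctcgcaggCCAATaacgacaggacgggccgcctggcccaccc
EBP, chrX:48521608-48521807, plus strand: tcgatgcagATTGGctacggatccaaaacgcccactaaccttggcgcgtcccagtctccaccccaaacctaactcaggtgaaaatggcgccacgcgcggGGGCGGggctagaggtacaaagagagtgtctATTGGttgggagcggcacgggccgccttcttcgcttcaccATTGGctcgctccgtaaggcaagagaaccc
DHCR7, chr11:71448394-71448593, minus strand: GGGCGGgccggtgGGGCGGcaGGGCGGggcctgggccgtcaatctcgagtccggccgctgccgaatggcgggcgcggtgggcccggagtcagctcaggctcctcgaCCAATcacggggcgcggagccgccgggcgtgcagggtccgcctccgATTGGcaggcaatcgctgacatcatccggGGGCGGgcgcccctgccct
In these 200 bases MSMO1 had 4 CCAAT matches, EBP 3, DHCR7 2, LSS 1 and CYP51A1 0. LSS had 5 GC matches and DHCR7 4, against 1 each in CYP51A1, MSMO1 and EBP. The second DHCR7 window held neither motif.

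Values are log2 of background-corrected, quantile-normalized bead intensity, and a change is the difference of group means with its standard error, n = 2 arrays per group. A probe was called detected at a detection p under 0.01 and was kept for testing if detected on at least 2 arrays, and 14 of the 15 probes passed. Each gene is described by its brightest kept probe, and its other probes are given beside it. Levels of different probes are not compared. Tests were made with limma, with Benjamini-Hochberg adjustment across the 14851 kept probes, and "called" means an adjusted p under 0.05.

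Arrays detected 15370 to 17231 of their probes, and arrays of a group correlated at 0.987 to 0.994 across the 14851 kept probes, which are not independent. The log2 difference between replicates spread most in SKOV3 lovastatin, with an SD of 0.349 over probes, against 0.249 to 0.273 elsewhere. Of 10 epithelial carcinoma markers, 7 were detected on both arrays of each SKOV3 group and 5 of each OVCAR5 group. EPCAM, KRT8, KRT18, PAX8 and ERBB2 were detected in both lines. KRT7 and KRT19 were detected in SKOV3 but not on any OVCAR5 array. KRT19 was at least 46.8-fold lower in OVCAR5 DMSO than in SKOV3 DMSO. The brightest PAX8 probe had means of 5.73 in OVCAR5 DMSO and 9.52 in SKOV3 DMSO. CDH1, WT1 and MUC16 were not detected on any array. Summed signal of the 10 epithelial markers was 25395 to 28204 in SKOV3 lovastatin and 13208 to 13433 in SKOV3 DMSO. It was 4801 to 5095 in OVCAR5 lovastatin and 4190 to 4368 in OVCAR5 DMSO. In SKOV3, 4 of 7 tested markers were called higher and 1 lower, against 26.1% and 23.4% of all tested genes. By brightest probe, KRT19 and ERBB2 rose there by 1.89 and 0.83 (limma, adjusted p = 9.5e-06 and 8.4e-04), whereas KRT18 fell by 0.39 (limma, adjusted p = 0.031). The other kept KRT18 probe was at 0.021 in SKOV3 (limma, adjusted p = 0.94), so the 1 marker counted as lower rests on the choice of probe. The leukocyte markers PTPRC and CD3E and all 3 endothelial markers were not detected on any array. The CD14 probe changed by 0.54 ± 0.13 in OVCAR5 (limma, adjusted p = 0.021) and the ALB probe by 0.99 ± 0.22 in SKOV3 (limma, adjusted p = 0.0063). Summed signal of the leukocyte list was 220 to 226 on OVCAR5 lovastatin arrays and 199 to 205 on OVCAR5 DMSO arrays, with CD14 the 1 of 3 genes detected. That of the hepatocyte list was 235 to 264 in SKOV3 lovastatin and 142 to 164 in SKOV3 DMSO, with ALB the 1 of 2 detected. That of 5 fibroblast markers was 304 to 313 in SKOV3 lovastatin and 292 to 327 in SKOV3 DMSO. Their part in the results below was not tested. Fewer cells of a kind and less RNA per cell cannot be told apart in such bulk samples.

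In SKOV3, most of the sterol branch was higher with lovastatin. SQLE, LSS, CYP51A1, MSMO1, HSD17B7 and DHCR7 rose, by 0.56 to 1.85 on the log2 scale. EBP fell by 0.46, and NSDHL and TM7SF2 did not pass the test. That is 6 of 9 genes higher, against 26.1% of all 11218 tested genes called higher, and 1 of 9 lower, against 23.4% called lower. The median change of the 9 genes was 1.04, beside 0.026 over all tested genes. By probe, 10 of 14 were higher and 1 lower, against 25.1% and 23.7% of all kept probes. In 8 of 9 genes both SKOV3 lovastatin arrays lay above both SKOV3 DMSO arrays, which held for 38.4% of all tested genes, and in EBP both lay below, which held for 34.9%. In OVCAR5 only LSS was called: 1 of 9 genes higher, against 12.8% of all tested genes, and 0 of 9 lower by limma (0 at an unadjusted p under 0.05), against 8.68%. By probe, 1 of 14 was higher in OVCAR5 and 0 lower, against 11.9% and 8.76% of all kept probes. The OVCAR5 groups did not overlap for 3 genes that were higher and 3 that were lower, against 35.2% and 31.8% of all tested genes. The median change in OVCAR5 was -0.060, beside 0.013 over all genes. The share called in OVCAR5 was near the background.

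**Figure D1:**
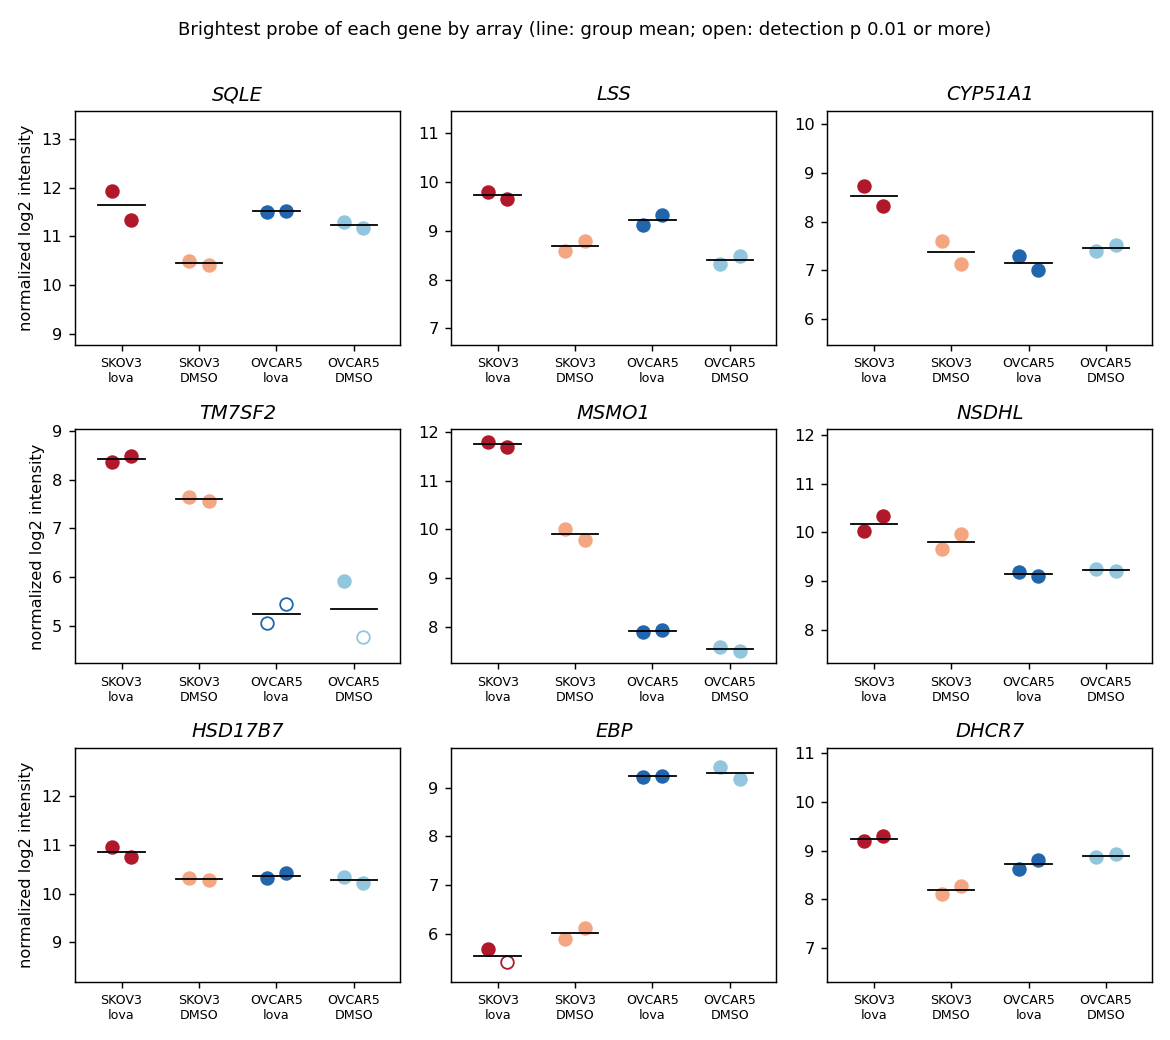
Normalized log2 intensity (y axis, the same height in every panel) of the brightest probe of each of the 9 genes on every array, by group, with a line at the group mean and open points where the probe was not detected. In SKOV3 the lovastatin arrays lie above the DMSO arrays for 8 genes and below for EBP, while in OVCAR5 this separation upward is seen for SQLE, LSS and MSMO1.

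SQLE, a rate-limiting enzyme of the branch, had values of 11.93 and 11.33 in SKOV3 lovastatin and of 10.48 and 10.41 in SKOV3 DMSO. Its values were 11.50 and 11.53 in OVCAR5 lovastatin and 11.28 and 11.17 in OVCAR5 DMSO. In both lines the lovastatin arrays lay above the DMSO arrays, but the gap was wide only in SKOV3, and SKOV3 DMSO stood lowest of the 4 groups while the lovastatin groups of the lines overlapped. SQLE rose by 1.18 ± 0.19 in SKOV3, which is 2.27-fold (adjusted p = 0.0011). In OVCAR5 its change was 0.29 ± 0.19 (95% interval -0.15 to 0.72, adjusted p = 0.33). The second SQLE probe gave 0.89 ± 0.15 in SKOV3 (adjusted p = 0.0014) and 0.34 ± 0.15 in OVCAR5 (adjusted p = 0.14). Both probes thus moved alike within a line.

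LSS, the lanosterol synthase, was the member called in both lines. It had 9.80 and 9.65 in SKOV3 lovastatin, against 8.59 and 8.79 in SKOV3 DMSO. It had 9.13 and 9.33 in OVCAR5 lovastatin, against 8.32 and 8.48 in OVCAR5 DMSO. No neighbouring groups overlapped, and both lovastatin groups stood above both DMSO groups. LSS rose by 1.04 ± 0.14 in SKOV3 (2.06-fold, adjusted p = 5.2e-04) and by 0.83 ± 0.14 in OVCAR5 (1.78-fold, adjusted p = 0.0056). The difference of the changes was 0.21 ± 0.20 (95% interval -0.25 to 0.68) and was not called (adjusted p = 0.48); its interval holds a greater rise in either line. With the mean of both kept LSS probes in place of the brightest, the change was 0.63 in SKOV3, still called, and 0.44 in OVCAR5, no longer called (adjusted p = 0.11). That other kept probe was detected on 1 of 2 SKOV3 lovastatin arrays and 1 of 2 OVCAR5 DMSO arrays and on no other. The remaining LSS probe was detected on 0 of 8 arrays.

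CYP51A1, the lanosterol demethylase and the target of azole drugs in fungi, had 8.73 and 8.32 in SKOV3 lovastatin, against 7.61 and 7.13 in SKOV3 DMSO. In OVCAR5 it had 7.30 and 7.01 with lovastatin and 7.40 and 7.51 with DMSO. The SKOV3 lovastatin arrays stood above all others, and the other 3 groups, between 7.01 and 7.61, overlapped with their neighbours in the order of means. It rose by 1.16 ± 0.20 in SKOV3 (2.23-fold, adjusted p = 0.0020). Its change in OVCAR5 was -0.30 ± 0.20 (95% interval -0.77 to 0.17, adjusted p = 0.34). RefSeq names 3 pseudogenes of CYP51A1, which the probe cannot be assumed to exclude.

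TM7SF2, the sterol reductase that acts after CYP51A1, had 8.37 and 8.49 in SKOV3 lovastatin, against 7.64 and 7.57 in SKOV3 DMSO. The SKOV3 arrays were close within a group and apart between groups, but the spread estimated over all groups gave a change of 0.82 ± 0.32 that was not called (95% interval 0.087 to 1.56, adjusted p = 0.063). In OVCAR5 it was near background: 5.05 and 5.44 with lovastatin, neither detected, and 5.92 and 4.77 with DMSO, where 1 of 2 was detected. The OVCAR5 DMSO arrays lay farthest apart of any group, and leaving out either OVCAR5 DMSO array gave the same SKOV3 change with an adjusted p of 0.0045. No fold is given for OVCAR5.

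MSMO1, the oxidase that starts the removal of the paired methyl groups, had the largest rise of the 9 genes in SKOV3. It had 11.80 and 11.69 in SKOV3 lovastatin, against 10.02 and 9.78 in SKOV3 DMSO. It had 7.90 and 7.93 in OVCAR5 lovastatin, against 7.58 and 7.50 in OVCAR5 DMSO. The 4 groups did not overlap, with both SKOV3 groups above both OVCAR5 groups. MSMO1 rose by 1.85 ± 0.13 in SKOV3, which is 3.61-fold (adjusted p = 1.5e-05). In OVCAR5 the change was 0.37 ± 0.13 (95% interval 0.073 to 0.67, adjusted p = 0.079). With array weights estimated from the data the OVCAR5 value of 0.37 was called (limma, adjusted p = 0.036). These weights were equal within each group, so they weigh groups and not single arrays. They were 0.483 in SKOV3 lovastatin, 1.27 in OVCAR5 lovastatin and 1.41 in OVCAR5 DMSO.

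The other MSMO1 probes rose in SKOV3 too but disagreed on size. The dimmest by its mean over the 8 arrays, with 9.45 and 8.96 in SKOV3 lovastatin against 7.50 and 7.14 in SKOV3 DMSO, rose by 1.89 ± 0.19 (adjusted p = 1.1e-04). The middle one, with 7.56 and 8.002 in SKOV3 lovastatin against 6.85 and 7.02 in SKOV3 DMSO, rose by 0.85 ± 0.19 (adjusted p = 0.0069). Neither had overlapping SKOV3 groups. In OVCAR5 they gave 0.17 ± 0.19 and 0.16 ± 0.19 (adjusted p = 0.59 and 0.62). The dimmest was detected on 1 of 2 OVCAR5 lovastatin arrays and on 0 of 2 OVCAR5 DMSO arrays.

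NSDHL, the dehydrogenase that follows MSMO1, moved least among the genes that were higher in SKOV3. It had 10.03 and 10.33 in SKOV3 lovastatin, against 9.66 and 9.96 in SKOV3 DMSO. It had 9.18 and 9.10 in OVCAR5 lovastatin, against 9.25 and 9.21 in OVCAR5 DMSO. The groups did not overlap in either line, yet the gaps were small. The changes were 0.37 ± 0.16 in SKOV3 (95% interval 0.011 to 0.72, adjusted p = 0.082) and -0.091 ± 0.16 in OVCAR5 (95% interval -0.45 to 0.27, adjusted p = 0.73), so neither was called. The SKOV3 value was called without background correction (0.33, adjusted p = 0.032) and without SKOV3 lovastatin replicate 1 (0.52, adjusted p = 0.037). It was 0.22 without SKOV3 lovastatin replicate 2 (adjusted p = 0.30) and 0.22 without SKOV3 DMSO replicate 1 (adjusted p = 0.38).

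HSD17B7, the ketoreductase that completes the removal of the paired methyl groups, had 10.96 and 10.74 in SKOV3 lovastatin, against 10.32 and 10.27 in SKOV3 DMSO. It had 10.31 and 10.42 in OVCAR5 lovastatin, against 10.34 and 10.22 in OVCAR5 DMSO. SKOV3 lovastatin stood alone at the top, and the other 3 groups overlapped with their neighbours. HSD17B7 rose by 0.56 ± 0.13 in SKOV3 (1.47-fold, adjusted p = 0.0080). The change in OVCAR5 was 0.085 ± 0.13 (95% interval -0.21 to 0.39, adjusted p = 0.70). There are 2 pseudogenes of HSD17B7 in RefSeq, which its probe cannot be assumed to exclude either.

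EBP, the isomerase also known as the emopamil-binding protein, went against the others. It had 5.68 and 5.42 in SKOV3 lovastatin, with 1 of 2 arrays detected, against 5.90 and 6.13 in SKOV3 DMSO. It had 9.23 and 9.25 in OVCAR5 lovastatin, against 9.42 and 9.18 in OVCAR5 DMSO. The SKOV3 arrays lay close to background and the OVCAR5 arrays far above it. EBP fell by 0.46 ± 0.15 in SKOV3 (adjusted p = 0.035), a call lost under 10 of the alternatives, among them at an adjusted p of 0.19 without background correction (-0.15) and of 0.14 and 0.19 without SKOV3 lovastatin replicate 2 (-0.33) and SKOV3 DMSO replicate 2 (-0.35). Without either OVCAR5 lovastatin array its adjusted p was 0.054. In OVCAR5 the change was -0.060 ± 0.15 (95% interval -0.41 to 0.29, adjusted p = 0.83).

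DHCR7, the reductase whose loss causes Smith-Lemli-Opitz syndrome, had 9.19 and 9.30 in SKOV3 lovastatin, against 8.11 and 8.26 in SKOV3 DMSO. It had 8.62 and 8.81 in OVCAR5 lovastatin, against 8.86 and 8.92 in OVCAR5 DMSO. SKOV3 lovastatin stood highest and SKOV3 DMSO lowest, with the OVCAR5 groups between them. DHCR7 rose by 1.06 ± 0.13 in SKOV3 (2.08-fold, adjusted p = 2.8e-04) and its second probe by 1.22 ± 0.17 (adjusted p = 4.8e-04). In OVCAR5 the probes gave -0.18 ± 0.13 and -0.072 ± 0.17 (adjusted p = 0.38 and 0.81).

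**Figure D2:**
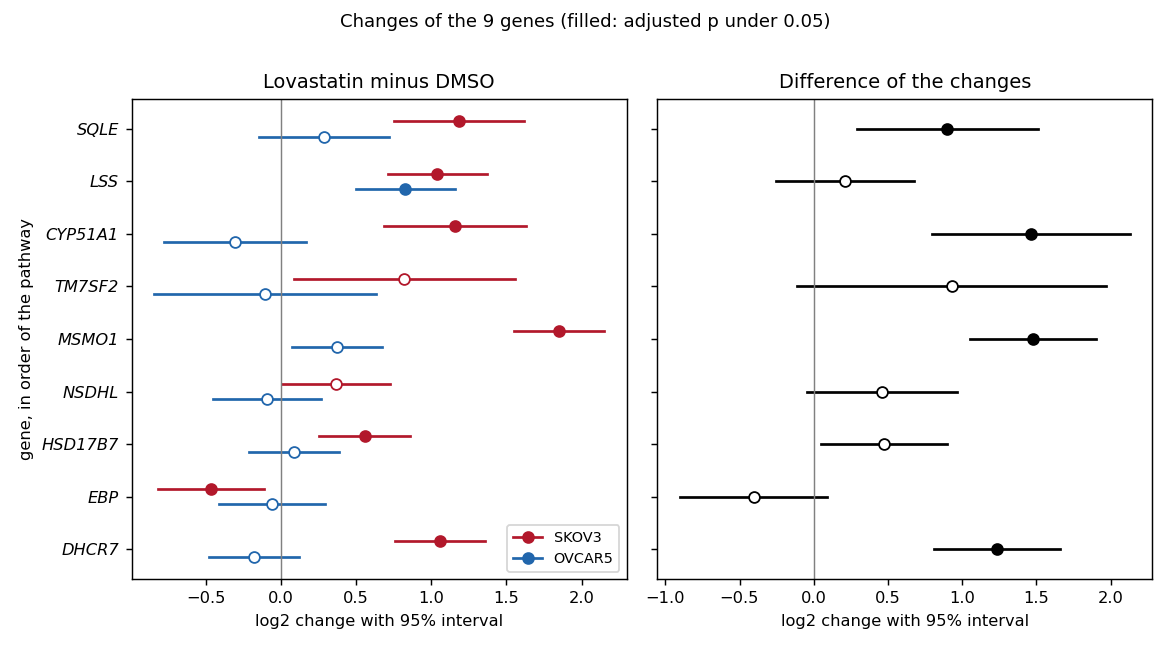
Left, log2 change with lovastatin against DMSO (x axis) of the brightest probe of each gene (y axis, in order of the pathway) in SKOV3 and OVCAR5 with 95% intervals; right, the SKOV3 change minus the OVCAR5 change. Filled points had an adjusted p under 0.05: 7 in SKOV3, LSS alone in OVCAR5, and SQLE, CYP51A1, MSMO1 and DHCR7 for the difference.

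Whether the lines responded unequally was tested on the difference of their changes, SKOV3 minus OVCAR5. It was called for 4 of 9 genes, all with the greater rise in SKOV3, against 12.2% of all tested genes called in that direction, and for 0 of 9 in the other by limma (13.8% of all genes). No member had an unadjusted p under 0.05 in that other direction. The median difference of the 9 genes was 0.90, beside -0.016 over all tested genes. MSMO1 differed by 1.48 ± 0.18 (adjusted p = 9.8e-04), CYP51A1 by 1.46 ± 0.29 (adjusted p = 0.0081) and DHCR7 by 1.23 ± 0.18 (adjusted p = 0.0022). The CYP51A1 value was 0.96 without background correction. SQLE differed by 0.90 ± 0.27 (adjusted p = 0.040). The SQLE call was the frailest: leaving out either SKOV3 DMSO array, either OVCAR5 lovastatin array or either OVCAR5 DMSO array gave differences of 0.84 to 0.96 with adjusted p of 0.075 to 0.11, and leaving out SKOV3 lovastatin replicate 1 gave 0.60 (adjusted p = 0.038) and replicate 2 gave 1.20 (adjusted p = 0.0038). Its second probe differed by 0.55 ± 0.21 (adjusted p = 0.087).

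The other differences were not called, and their intervals leave sizeable values possible. HSD17B7 differed by 0.47 ± 0.18 (95% interval 0.048 to 0.90, adjusted p = 0.097) and NSDHL by 0.46 ± 0.22 (95% interval -0.045 to 0.96, adjusted p = 0.16). EBP differed by -0.40 ± 0.22 (95% interval -0.90 to 0.092, adjusted p = 0.21). TM7SF2 differed by 0.93 ± 0.45 (95% interval -0.11 to 1.97, adjusted p = 0.17), a value that takes in the near-background OVCAR5 arrays. Leaving out 1 array made a call of HSD17B7 without SKOV3 lovastatin replicate 2 (0.58, adjusted p = 0.043) and of TM7SF2 without OVCAR5 DMSO replicate 2 (1.505, adjusted p = 0.0077). Without OVCAR5 DMSO replicate 1 the TM7SF2 difference was 0.35 (adjusted p = 0.39). The second DHCR7 probe, at 1.29 ± 0.23, and the dimmest MSMO1 probe, at 1.71 ± 0.27, were called as well (adjusted p = 0.0054 and 0.0031), whereas the middle MSMO1 probe was not, at 0.69 ± 0.27 (adjusted p = 0.099). By probe, 6 of 14 were called in that direction and 0 in the other, against 11.7% and 13.6% of all kept probes.

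**Figure D3:**
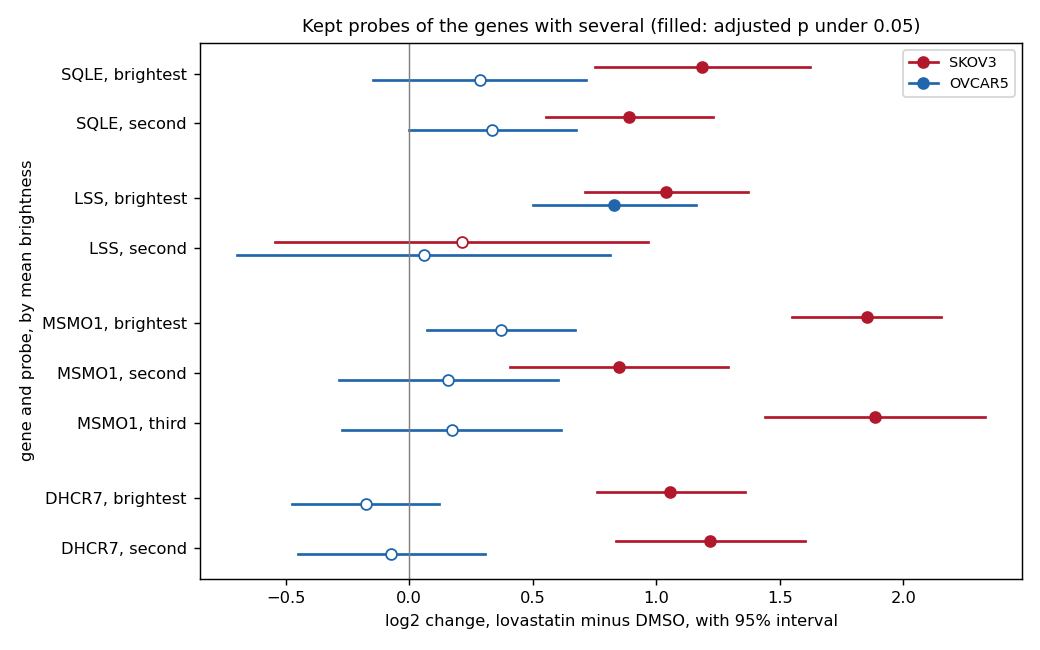
Log2 change with lovastatin against DMSO (x axis), with 95% intervals, for every kept probe of the 4 genes that have several (y axis, by mean brightness), in SKOV3 and OVCAR5. All SQLE, MSMO1 and DHCR7 probes were called higher in SKOV3, the middle MSMO1 probe at 0.85, and the dim second LSS probe was called in neither line.

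Single genes of this branch already differed between the untreated lines. Between SKOV3 DMSO and OVCAR5 DMSO, MSMO1, TM7SF2 and NSDHL were higher in SKOV3 and EBP, SQLE and DHCR7 lower: 3 of 9 genes each way, against 31.9% of all tested genes higher and 29.2% lower, so the counts were near the background. By probe, 4 of 14 were higher and 5 lower, against 30.7% and 29.8%, and the groups did not overlap for 4 genes that were higher and 3 that were lower, against 42.8% and 40.7%. EBP was set farthest apart, at 6.01 ± 0.17 in SKOV3 DMSO and 9.30 ± 0.17 in OVCAR5 DMSO (mean ± SD, n = 2 each), a difference of -3.28 ± 0.15, or 9.74-fold lower in SKOV3 (adjusted p = 5.7e-07). Without background correction the difference was -2.06 (adjusted p = 1.1e-08), so the fold depends on that step. All SKOV3 arrays of EBP lay at or under 6.13 and all OVCAR5 arrays at or above 9.18.

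MSMO1 differed by 2.36 ± 0.13 on its brightest probe (5.12-fold higher in SKOV3, adjusted p = 1.5e-06), and its dimmest probe, undetected in OVCAR5 DMSO, was at least 3.42-fold higher (adjusted p = 2.5e-05). This bound sets the mean of the SKOV3 arrays against the lowest detected signal of each OVCAR5 array or the probe's own, whichever was higher. The middle MSMO1 probe had 6.85 and 7.02 in SKOV3 DMSO and 7.20 and 6.80 in OVCAR5 DMSO, a difference of -0.067 ± 0.19 (95% interval -0.51 to 0.37, adjusted p = 0.78). With the mean of its kept probes MSMO1 differed by 1.48 (adjusted p = 1.1e-05). The probes of MSMO1 therefore disagree on the difference between the lines while all were called higher with lovastatin in SKOV3.

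TM7SF2 was 2.26 ± 0.32 higher in SKOV3 (adjusted p = 3.7e-04), with 1 of 2 OVCAR5 DMSO arrays detected, and 0.99 without background correction (adjusted p = 1.5e-05). NSDHL was 0.58 ± 0.16 higher (adjusted p = 0.011), a call lost without SKOV3 DMSO replicate 2 (0.43, adjusted p = 0.085) and without OVCAR5 DMSO replicate 2 (0.56, adjusted p = 0.053). SQLE was lower in SKOV3, at -0.78 ± 0.19 (adjusted p = 0.0068), and -0.69 ± 0.15 on its other probe (adjusted p = 0.0035). DHCR7 was lower too, at -0.70 ± 0.13 (adjusted p = 0.0016), and -0.96 ± 0.17 on its other probe (adjusted p = 0.0011). LSS, CYP51A1 and HSD17B7 were not called, at 0.29 ± 0.14, -0.090 ± 0.20 and 0.015 ± 0.13 (adjusted p = 0.11, 0.72 and 0.93). The SKOV3 changes and this comparison share the SKOV3 DMSO arrays, and the OVCAR5 changes share its OVCAR5 DMSO arrays, so they are not independent.

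**Figure D4:**
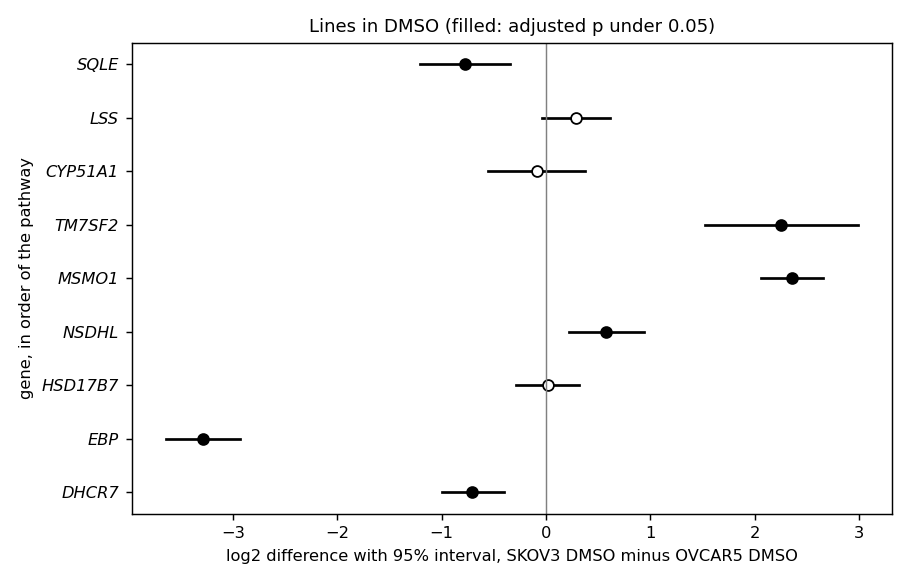
Difference between the lines in DMSO, SKOV3 minus OVCAR5, in log2 units with 95% intervals (x axis), for the brightest probe of each gene (y axis, in order of the pathway); filled points had an adjusted p under 0.05. EBP lies far to the left at -3.28, MSMO1 and TM7SF2 far to the right at 2.36 and 2.26.

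Of 9 listed genes from acetyl-CoA to squalene, 7 had a named probe and were tested. In SKOV3 5 of 7 rose and 0 fell by limma (0 of 7 with an unadjusted p under 0.05 in that direction), with a median of 1.04, against 26.1% of all tested genes called higher and 23.4% lower. MVD, the decarboxylase of the mevalonate pathway, rose by 1.48 ± 0.19 (adjusted p = 3.1e-04) and HMGCS1, the synthase before the statin's target, by 1.48 ± 0.12 (adjusted p = 3.5e-05). In OVCAR5 0 of 7 were called by limma, with a median of 0.098, against 12.8% of all tested genes higher and 8.68% lower. By brightest probe, the largest values there were those of IDI1, an isomerase, at 0.43 ± 0.20 (adjusted p = 0.16), and ACAT2, a thiolase, at -0.37 ± 0.13 (adjusted p = 0.086, unadjusted p = 0.024, the 1 of 7 under 0.05). The other ACAT2 probe had -0.83 ± 0.35 in OVCAR5 (limma, adjusted p = 0.14) and 0.51 ± 0.35 in SKOV3 (limma, adjusted p = 0.27). It was dim in OVCAR5, with means of 4.75 with lovastatin, where neither array detected it, and 5.58 with DMSO. The difference of the changes was called for 4 of 7, all greater in SKOV3, against 12.2% of all tested genes.

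Other genes that act after squalene, or resemble those that do, include relatives of the members. Of 6 other listed genes after squalene, 5 had a probe and 3 were tested: in SKOV3 2 of 3 fell, against 23.4% of all tested genes, and in OVCAR5 1 of 3, against 8.68%. EBPL, a protein related to EBP in sequence, fell by 1.41 ± 0.14 in SKOV3 (adjusted p = 9.0e-05) and by 0.53 ± 0.14 in OVCAR5 (adjusted p = 0.032). LBR, a lamin receptor with the same reductase activity as TM7SF2, fell by 0.66 ± 0.13 in SKOV3 (adjusted p = 0.0039). TM7SF2 itself was at 0.82 there and was not called (limma, adjusted p = 0.063). The other LBR probe was at -0.17 ± 0.16 (adjusted p = 0.39). SC5D, the desaturase before DHCR7, had 0.34 ± 0.15 in OVCAR5 (adjusted p = 0.14).

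Of 11 listed genes of SREBP control and its targets, 8 were tested, of which 4 rose and 1 fell in SKOV3 and 2 rose and 1 fell in OVCAR5. Over all tested genes, 26.1% were called higher and 23.4% lower in SKOV3, and 12.8% and 8.68% in OVCAR5. The medians were 0.50 in SKOV3 and 0.067 in OVCAR5. INSIG2 and INSIG1, which hold SCAP in the endoplasmic reticulum when sterol is plentiful, rose by 1.82 ± 0.16 and 1.79 ± 0.13 in SKOV3 (adjusted p = 5.0e-05 and 1.5e-05). INSIG1 also rose in OVCAR5, by 0.84 ± 0.13 (adjusted p = 0.0032). TMEM97, a relative of EBP, fell by 1.32 ± 0.13 in OVCAR5 on its brightest probe (adjusted p = 5.2e-04), while its other probe was at 0.010 (adjusted p = 0.97). In SKOV3 its probes were called in opposite directions, the brightest at -1.07 ± 0.14 (adjusted p = 3.3e-04) and the other at 0.66 ± 0.14 (adjusted p = 0.0042), so the 1 gene counted as lower there rests on the choice of probe.

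**Figure D5:**
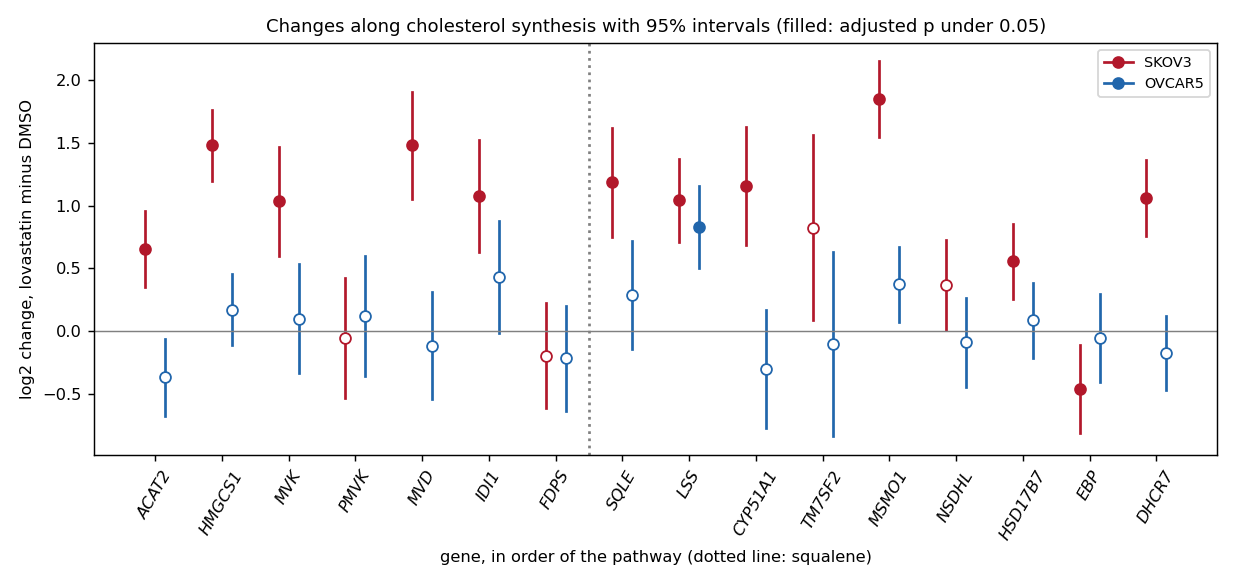
Log2 change with lovastatin against DMSO (y axis), with 95% intervals, along cholesterol synthesis (x axis; the dotted line marks squalene) in SKOV3 and OVCAR5. Filled points, with an adjusted p under 0.05, lie above 0 for 11 SKOV3 genes and for LSS in OVCAR5, and below 0 for EBP in SKOV3.

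Averaged over the 9 genes, each centred on its mean over the 8 arrays, the profile stood at 0.71 and 0.58 in SKOV3 lovastatin, against -0.20 on both SKOV3 DMSO arrays. In OVCAR5 it stood at -0.21 and -0.14 with lovastatin and at -0.19 and -0.35 with DMSO. This mean profile was thus high in 1 of 4 groups, but it joins genes that differed between the untreated lines in opposite directions. HSD17B7 lay closest to it, with a root mean square difference of 0.14 over the 8 arrays. EBP lay farthest, at 2.02, followed by MSMO1 at 1.38 and TM7SF2 at 1.17, so the mean does not describe these genes. Outside the listed genes, EDEM1, RAB3IL1, TM2D1, FBLN2 and the Golgi GTPase gene ARL1 had the profiles most like this mean. EDEM1 helps degrade misfolded glycoproteins. The differences of these genes were 0.051 to 0.089, smaller than that of any member. This ranking describes the 8 arrays and favours genes whose change has the same size as the members' mean.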

How the data were processed

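Total RNA of 8 samples of 2 lines was labelled as biotinylated cRNA and hybridised to Illumina beadchips, per the labels' protocols. Per the file headers, the authors deposited each probe's mean intensity, raw, beside a detection p-value. A second deposited table holds log2 values made with limma, per the submitters' processing notes; its version and settings are not stated there. It matched neqc values of each line alone within 0.01 log2 for 99.997% of SKOV3 and 99.987% of OVCAR5 values, with medians near 4.81 and 4.74, so it was taken as uncentred log2, normalized within a line, and used as an alternative.

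From the intensities of all 8 arrays, neqc of limma 3.58.1 in R 4.3.3 gave background-corrected, quantile-normalized log2 values with an offset of 16. Of 47323 probes, 30113 had 1 gene symbol in the platform annotation, 8 had several and 17202 were unnamed here. Those with 1 symbol that 2 or more arrays detected at p under 0.01 were kept, which left 14851 probes of 11218 genes. A model of 4 group means was fitted by limma to all of them, with Benjamini-Hochberg adjustment over them, and tested on simulated data. Members, lists and tests were chosen with earlier results of these data known. All 9 members are named; of the other lists, the 2 genes with the greatest absolute change in each line; and the 5 genes nearest the members' mean profile. Listed genes without a named probe were not analysed here. Alternatives were no background correction, an offset of 50, the deposited log2 values, other detection filters, fits by gene, each line alone, a replicate block, array weights and leaving out each array. Python 3.11.15 with matplotlib 3.10.9 drew the figures.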

Additional observations from a re-analysis of the deposited data

Results flagged for a closer look

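The lovastatin changes of 4 genes differed between the lines by the test of the difference itself, SKOV3 minus OVCAR5, over 2 arrays per group. The difference was 0.90 for SQLE, 1.46 for CYP51A1, 1.48 for MSMO1 and 1.23 for DHCR7 on the log2 scale, with a greater rise in SKOV3 each time (limma, adjusted p = 0.040, 0.0081, 9.8e-04 and 0.0022). For MSMO1 and DHCR7 the changes in SKOV3 were 1.85 and 1.06 and those in OVCAR5 0.37 and -0.18. These values are of the brightest probes, and the SQLE call was the frailest. Under the alternatives the SQLE difference ranged from 0.60 to 1.20. The second SQLE probe, at 0.55, and the middle MSMO1 probe, at 0.69, were not called (limma, adjusted p = 0.087 and 0.099). Groups of 2 arrays were too small to look for single arrays that stand apart.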

How the results depend on the processing

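Having 2 arrays per group limits the precision, and dim probes (EBP in SKOV3, TM7SF2 in OVCAR5) limit what their changes can show. The count of members called lower in SKOV3, 1 (EBP), was 0 without background correction, with an offset of 50, with no filter on dim probes, with each line fitted alone, with array weights and when detection on all 8 arrays was required, which left out EBP and TM7SF2; leaving out single arrays gave 0 to 1, and 0 without SKOV3 lovastatin replicate 2, SKOV3 DMSO replicate 2 or either OVCAR5 lovastatin array. The count of members called higher in OVCAR5, 1 (LSS), was 0 with the mean of the kept probes and 2 with array weights, and 1 without any single array. The count of members called higher in SKOV3, 6, stayed at 6 to 7 when single arrays were left out, and that for the difference of the changes, 4, at 3 to 5. The count for the difference was 6 without background correction, with HSD17B7 (0.44, adjusted p = 0.029) and TM7SF2 (0.61, 0.013) added, and 5 with an offset of 50, with TM7SF2 (0.81, 0.035) added. NSDHL in SKOV3 was called without background correction (0.33, adjusted p = 0.032), with an offset of 50 (0.36, 0.050, just under the threshold), with the replicate block (0.37, 0.043) and without SKOV3 lovastatin replicate 1 (0.52, 0.037). TM7SF2 in SKOV3 was called without background correction (0.57, 0.0013), with an offset of 50 (0.73, 0.0061), in the authors' deposited log2 table (0.80, 0.045) and with each line fitted alone (0.82, 0.0045), and the SQLE difference was not called with no filter on dim probes (0.90, 0.073). No called member reversed its direction under any of these alternatives. Over all genes, the count called in OVCAR5, 2405, was 1164 and 1230 without OVCAR5 lovastatin replicates 1 and 2 and 1296 and 1305 without OVCAR5 DMSO replicates 1 and 2, and that for the difference, 2923, was 1944 without SKOV3 DMSO replicate 1; the median change of all genes moved by less than 0.1. The labels number the arrays of each group 1 and 2 but do not pair them: the differences between replicates correlated at 0.21 between the SKOV3 groups and at -0.014 between the OVCAR5 groups. With the replicate number as a block, the members called higher in SKOV3 numbered 7 and those called lower 0 (EBP, adjusted p = 0.055), and the genes called over the whole array numbered 5689 in SKOV3 and 2351 in OVCAR5, against 5548 and 2405 without it.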
